A study of Mus musculus with 6 samples.

Results

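Cadherins and protocadherins, the calcium-dependent adhesion receptors of the cell surface, were followed in cultured DR4 mouse embryonic fibroblasts. The members are the probe sets whose single platform gene symbol begins with Cdh or Pcdh followed by a digit, a or b. They number 59 of the 22626 probe sets on the MOE430A array and 41 of the 22511 on MOE430B. Together they name 55 of the 18193 genes with 1 symbol, 47 on MOE430A and 24 on MOE430B, with 16 on both. Left out were 6 MOE430A probe sets that carry several symbols of the clustered alpha protocadherins at once. Only 1 probe set with a single symbol names a clustered gamma protocadherin, Pcdhgc4, and it falls outside the rule. Gamma probe sets that carry several symbols were not counted.

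DR4 fibroblasts come from mice bred to carry several drug resistance genes and serve as a feeder layer for embryonic stem cells. According to the labels they were prepared from day 15 embryos and grown on gelatin with serum and LIF, a cytokine that keeps stem cells undifferentiated, as the control sample beside 3 stem cell lines that were not analysed here. Total RNA of 3 replicates was hybridized to both arrays, which gives 6 samples of 1 group. In the notation of the labels, 12x10e6 cells went into replicate 1, with an RNA concentration of 2.4 ug/ul. For replicates 2 and 3 these entries read 3x10e6 and 3.0 ug/ul. No genotype, sex, passage or growth arrest is stated there, nor whether the replicates were separate cultures, so the SDs and p-values here reflect spread among these arrays alone, possibly of technical origin. The small number of arrays limits the precision of each value.

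A cadherin binds a like molecule on the neighbouring cell through repeated extracellular domains that calcium holds rigid. The tail of a classical cadherin binds p120-catenin and beta-catenin inside the cell, and alpha-catenin and vinculin join this complex to actin. Protocadherins share the extracellular repeats but have other tails, many of which bind regulators of actin branching, and they are best known for sorting cells in the embryo and neurons in the brain. Fibroblasts are known for N-cadherin and cadherin-11 in their junctions, and epithelia for E-cadherin.

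The values are MAS5 signals, the Affymetrix summary of the short oligonucleotides of a probe set, on a linear scale. Each array's median signal served as the floor, at 685 to 734 on the MOE430A arrays and 849 to 917 on MOE430B, and a probe set counted as above it when it exceeded the median on all 3 arrays of its type. This floor is a rank and not a detection limit. Among the bacterial tryptophan controls, which have no mouse target, the highest signal lay at 614 to 786 on MOE430A and at 1989 to 2348 on MOE430B. The 2 array types had been scaled apart: 100 mouse probe sets present on both read 3.46 to 4.15 times higher on MOE430B in the median. Signals of the 2 types were therefore not compared, and a brighter probe set need not mean a more abundant transcript. In an RNA pool, fewer cells of a type and less RNA per cell cannot be told apart.

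Fibroblast markers were above the floor for 12 of 12 measured genes, with Vim, an intermediate filament gene, at 149376 ± 17104 (SD, n = 3). Above it were also 4 of 13 epithelial markers, 3 of 11 endothelial and 2 of 11 skeletal muscle markers. So were 4 of 12 neuronal and glial, 3 of 6 macrophage and 1 of 7 pluripotent cell markers. Of all genes with 1 symbol 54.7% were above it, a larger share than in any of these lists but the fibroblast one. With 1 probe set for each listed gene on MOE430A, the brightest there, the summed signal was 647064 to 813259 for the fibroblast list (12 genes). It was 6353 to 8284 for the epithelial (13 genes), 4469 to 5376 for the endothelial (11) and 4624 to 5626 for the muscle list (11). The neuronal and glial list (12) summed to 7965 to 9760, the macrophage list (6) to 5848 to 6976 and the pluripotent cell list (7) to 1277 to 1779. MOE430B holds 4 fibroblast genes, at 2316 to 5516 in sum, and 2 epithelial genes at 19231 to 44987, most of it Epcam. It also holds 2 endothelial genes at 1789 to 3322, 2 muscle genes at 1428 to 4050.2, 5 neuronal and glial genes at 4367 to 6056, 1 macrophage gene at 44.1 to 89.8 and 1 pluripotent cell gene, Esrrb, at 3494 to 5323. Among defining genes, endothelial Pecam1 (141 ± 40.3), muscle Myod1 (473 ± 147) and neuronal Tubb3 (496 ± 262) were not above the floor on all 3 arrays. Tubb3 was above it in replicate 1 alone. Other markers were above it on all 3, some through only 1 of several probe sets. These were endothelial Kdr, Flt1 and Egfl7, muscle Des and Ckm, and neuronal and glial Stmn2, Syt1, Sox10 and Nefl. Macrophage Lyz2, Csf1r and Cd14 and epithelial Krt8, Ocln and Grhl2 were as well. Epithelial Epcam was at 62.1 ± 22.5 on MOE430A but at 32393 ± 13760.4 on its MOE430B probe set. That probe set and the Esrrb set carry _x_at, a suffix Affymetrix gives to sets whose probes may bind other transcripts too. The gene of origin of these signals is therefore uncertain. The part of cells other than fibroblasts in the signals below was not tested.

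Against the median floor most of the family was dim, more clearly on MOE430A than on MOE430B. On MOE430A 6 of 59 member probe sets (10.2%) lay above the floor on all 3 arrays, beside 42.4% of all probe sets there. On MOE430B 12 of 41 (29.3%) did, beside 37.2%. By genes, 13 of 55 (23.6%) had a probe set above the floor, beside 54.7% of all genes with 1 symbol. These 13 were Cdh2, Cdh3, Cdh4, Cdh6, Cdh10, Cdh11, Cdh13, Pcdh7, Pcdh9, Pcdh18, Pcdh19, Pcdhb15 and Pcdhb16. A further 9 genes reached it on only 1 or 2 arrays of a type, and 33 were under it on every array. The median member ranked at percentile 26.4 of its array on MOE430A and 44.4 on MOE430B, where the median of all probe sets is at 50 by construction.

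How many genes are counted depends on the floor. With the highest tryptophan control in its place 8 genes passed (44.0% of all genes did), Cdh2, Cdh3, Cdh11, Cdh13, Pcdh7, Pcdh9, Pcdh18 and Pcdh19. These came from 6 probe sets on MOE430A (10.2% of members, 41.5% of all there) and 6 on MOE430B (14.6% and 16.2%). A MOE430B floor derived from the shared probe sets, added after seeing the data, gave the same 8 genes (42.3% of all). It kept 6 MOE430B probe sets (14.6% of members, 12.4% of all). The array's 75th percentile left 5 genes (30.4% of all), Cdh4, Cdh11, Cdh13, Pcdh9 and Pcdh19. They came through 1 MOE430A probe set (1.69% of members, 20.7% of all) and 7 on MOE430B (17.1% and 17.7%). A fixed signal of 200 admitted 32 genes (79.7% of all). Its probe sets were 25 on MOE430A (42.4% of members, 68.0% of all) and 24 on MOE430B (58.5% and 70.0%). Under these floors, the fixed signal excepted, the MOE430B member share lay near that of all probe sets.

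**Figure D1:**
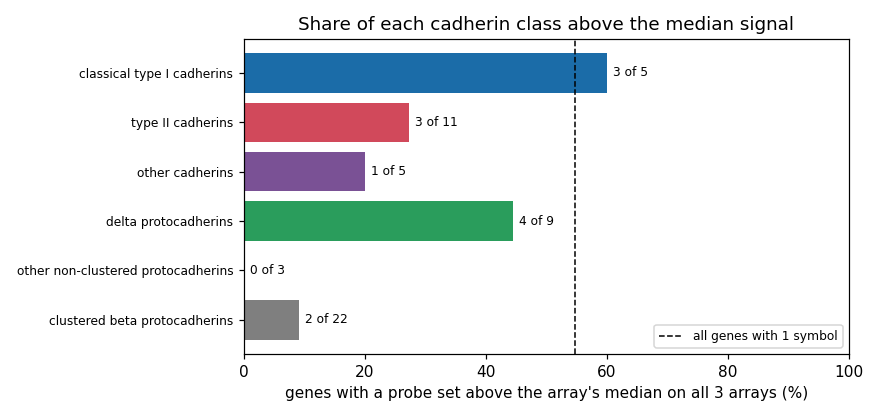
Share of the genes of each class (%) that had a probe set above the median signal on all 3 arrays of its type, with the count beside each bar. The dashed line is the share among all genes with 1 symbol, 54.7%; only the classical type I class, with 3 of 5 genes, reaches past it.

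Among the classical type I cadherins, which bind catenins through their tails, Cdh2, Cdh3 and Cdh4 were above the floor and Cdh1 and Cdh15 were not. Cdh2 encodes N-cadherin, the classical cadherin of mesenchyme and nerve. Its brighter probe set gave 1960.3, 1649 and 1536 in replicates 1, 2 and 3 (1715 ± 219.7, SD, n = 3). The other gave 1622, 1119.9 and 729, with replicate 3 just under its array's median of 734. Both Cdh2 probe sets were highest in replicate 1 and lowest in replicate 3.

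Cdh3, P-cadherin, gave 988, 1361 and 916 on MOE430A, above the floor on every array. On MOE430B its probe set gave 1943, 207 and 839.8, and only replicate 1 was above the floor, so that probe set varied more than the first. Cdh1, E-cadherin, the adhesion receptor of epithelia, was among the dimmest members at 59.1, 76.8 and 14.7, a mean percentile of 7.14. Cdh3 and Cdh1 are direct neighbours in the RefSeq gene order and lay on opposite sides of the floor on the same arrays.

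Cdh4, R-cadherin, a receptor best known from retina and brain, was above the floor through a MOE430B probe set alone, at 2770.1, 2784 and 2181. Replicate 3 fell short of the tryptophan control of its array, 2229. On MOE430A its probe sets gave 541, 234 and 514, and 23.7, 50.3 and 41.8, all under the floor. Cdh15, M-cadherin of muscle precursors, gave 306, 368 and 325, under the floor with little spread.

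Type II cadherins also bind catenins but differ from type I in their outermost repeat, and 3 of their 11 genes were above the floor. Cdh11, first described in bone-forming cells and known as a mesenchymal cadherin, was the brightest member on MOE430A. It gave 11948, 18688 and 13183 there (14606 ± 3588, SD, n = 3), a mean percentile of 97.5. On MOE430B a second probe set gave 3765, 5009.7 and 5252, at percentile 91.7. Replicate 1 was the lowest of the 3 on both arrays. Of the 13 genes above the floor, only Cdh11 and Pcdh19 had every one of their probe sets above it.

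Cdh6, K-cadherin, known from kidney and neural crest, gave 1749, 1403 and 1219 on MOE430B. These values exceed the floor but not the tryptophan control of those arrays. On MOE430A Cdh6 gave 622, 569 and 809.6, with only replicate 3 above the floor. Cdh10, mostly known from brain, had a single MOE430B probe set of 3 that passed the floor everywhere, at 2262, 1677 and 1969.7. The others gave 783, 1473 and 1178, and 279, 101 and 498, and its MOE430A probe set gave 54.5, 165 and 30.8. The probe sets of Cdh10 thus lay on both sides of the floor.

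The remaining type II members were not above it on all 3 arrays. Cdh5, VE-cadherin of endothelial junctions, gave 525, 366 and 368 on one probe set and 401, 453 and 390.2 on the other, all under the floor. Cdh22 gave 739.6, 467 and 754, above it in replicates 1 and 3. One of the 3 probe sets of Cdh7 gave 812, 270.5 and 1354, above it in replicate 3 alone. Cdh8, Cdh9, Cdh18, Cdh19 and Cdh20, which are mainly known from the nervous system, stayed under the floor on every array.

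Of the cadherins outside these classes, 1 of 5 was above the floor. Cdh13, T-cadherin, has no tail and is held in the membrane by a lipid anchor. It was among the brightest members on MOE430B, at 15442, 11352 and 12195 (12996 ± 2159.6, SD, n = 3), a mean percentile of 98.3. On MOE430A 1 of its 3 probe sets gave 1437, 1653 and 1599, also above the floor. The other 2 gave 33.7, 41.9 and 36.6, and 172, 155 and 224, so probe sets of this gene lay at opposite ends of one array. Where each matches the transcript was not determined.

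Cdh16 of kidney epithelium gave 374, 327 and 373, and Cdh17 of intestine and liver gave 296, 219 and 75.3. Cdh23, a component of the tip links of hair cells, was under the floor on both probe sets, the brighter at 531, 676 and 414. Cdh26 gave 369.7, 1700.1 and 2666 on MOE430B, under the floor in replicate 1 and above it in replicates 2 and 3.

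**Figure D2:**
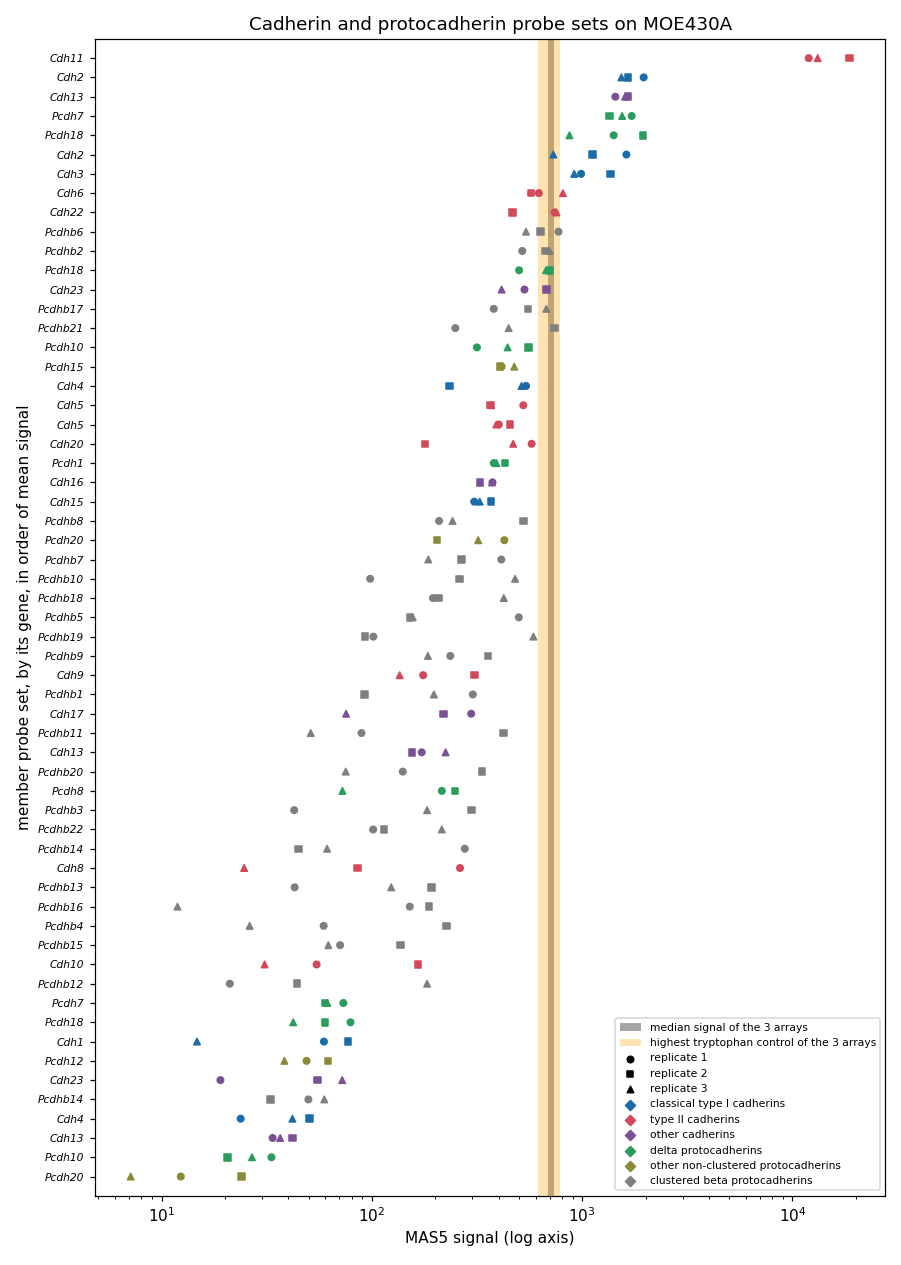
MAS5 signal (log axis) of each of the 59 member probe sets on the 3 MOE430A arrays, 1 row a probe set named by its gene, coloured by class, with the marker giving the replicate. The grey band spans the 3 array medians (685 to 734) and the orange band the highest tryptophan controls (614 to 786); Cdh11 stands apart at 11948 to 18688, and 47 probe sets lie left of the medians on every array.

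Delta protocadherins, the non-clustered group that is known for guiding cell movements and axons, had 4 of 9 genes above the floor: Pcdh7, Pcdh9, Pcdh18 and Pcdh19. Pcdh19, an X-linked receptor that can act together with N-cadherin, was the brightest member on MOE430B. Its 3 probe sets, all on that array, gave 15896, 14954 and 13694 (14848 ± 1105, SD, n = 3), then 13429.5, 12735 and 15495, and then 6426, 5124 and 6888. Each lay above the tryptophan control in every replicate, at mean percentiles of 98.7, 98.5 and 94.7.

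Pcdh9, expressed widely in the developing brain, had a first probe set at 5198, 5587 and 7084 (5956 ± 996). The second gave 1689, 1261 and 3109 and the dimmest 1161, 799 and 1307. Replicate 3 was the highest on all 3 probe sets, and replicate 2 the lowest on both dimmer ones. The brightest exceeded the tryptophan control on every array, the second in replicate 3 alone and the dimmest in none.

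Pcdh7, whose tail can bind a phosphatase, gave 1719, 1352 and 1548 on MOE430A (1539 ± 184). A second MOE430A probe set gave 73.1, 59.7 and 61.3, and one on MOE430B gave 799, 1409 and 1792, under the floor in replicate 1. Pcdh18, first described in the embryo, gave 1412, 1945 and 869.6 on its brightest probe set (1409 ± 537), with replicate 2 highest and replicate 3 lowest. Its other probe sets gave 501, 704 and 673, and 79.0, 59.6 and 42.2.

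The other delta members were not above the floor on all arrays. Pcdh17 came nearest, at 911, 572 and 1003 on one MOE430B probe set and 366, 496 and 1144 on the other. Pcdh8, a paraxial protocadherin of the early embryo, gave 779.7, 539 and 950.3 on MOE430B and 215, 248 and 72.4 on MOE430A. Pcdh1 gave 379.7, 430.2 and 391, and the 6 probe sets of Pcdh10 and the 2 of Pcdh11x stayed under the floor in every replicate.

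RefSeq promoter windows (GRCm38.p6) were matched by symbol for 20 of the 55 member genes, 6 above the floor and 14 not, and are given as description only. The 250 bases before the start are shown for delta members Pcdh19 and Pcdh18, which were above the floor, and for Pcdh15 and Pcdh20, which were not, 5′ to 3′ on the strand of the gene, with each CG in capitals because runs of CG mark the promoters known as CpG islands. They lie at chrX:133688994-133689243 (minus strand), chr3:49757317-49757566 (minus strand), chr10:73821617-73821866 (plus strand) and chr14:88471397-88471646 (minus strand).
Pcdh19: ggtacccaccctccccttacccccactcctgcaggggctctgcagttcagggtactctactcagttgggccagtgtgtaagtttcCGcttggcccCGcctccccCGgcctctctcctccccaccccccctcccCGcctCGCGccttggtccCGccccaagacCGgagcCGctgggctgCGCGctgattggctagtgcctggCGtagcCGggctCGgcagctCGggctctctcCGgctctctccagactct
Pcdh18: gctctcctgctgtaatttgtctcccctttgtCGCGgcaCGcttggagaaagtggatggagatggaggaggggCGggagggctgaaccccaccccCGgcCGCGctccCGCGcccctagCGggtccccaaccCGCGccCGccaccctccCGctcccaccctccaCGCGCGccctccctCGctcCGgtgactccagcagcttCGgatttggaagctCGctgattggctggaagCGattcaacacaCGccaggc
Pcdh15: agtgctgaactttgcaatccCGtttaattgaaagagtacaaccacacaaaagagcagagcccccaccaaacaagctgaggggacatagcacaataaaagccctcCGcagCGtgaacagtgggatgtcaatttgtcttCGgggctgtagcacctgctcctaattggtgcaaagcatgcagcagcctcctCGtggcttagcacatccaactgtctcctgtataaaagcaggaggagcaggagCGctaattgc
Pcdh20: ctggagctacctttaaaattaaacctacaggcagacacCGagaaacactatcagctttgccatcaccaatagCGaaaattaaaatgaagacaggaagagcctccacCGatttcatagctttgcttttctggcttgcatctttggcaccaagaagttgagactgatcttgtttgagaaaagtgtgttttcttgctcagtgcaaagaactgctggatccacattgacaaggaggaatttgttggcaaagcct

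The Pcdh19 and Pcdh18 windows hold 16 and 23 CG and have 69.2% and 68.0% G or C, against 6 and 3 CG and 50.4% and 42.4% in those of Pcdh15 and Pcdh20. This contrast does not run through the family. The window of Cdh10, above the floor, holds 2 CG at 36.8% G or C, and those of Cdh22 and Pcdh10, not above it, hold 30 and 22. In the median, windows of members above the floor held 16 CG (7 windows of 6 genes). Those of members not above it held 9 (16 windows of 14 genes), while the median over all 32851 RefSeq windows was 6. Pcdh9 and Cdh7 count with more than 1 window each, and the Pcdh9 windows largely overlap. Searched on both strands, CCAAT was found in 65.2% of the 23 member windows and 33.8% of all, GGGCGG in 34.8% and 32.7%, TATAAA in 8.70% and 12.4%, and CACCTG, an E-box of the kind Snail factors bind, in 13.0% and 17.2%. None of these 4 motifs contains another, and the windows differ in base composition.

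Other non-clustered protocadherins had 0 of 3 genes above the floor on all 3 arrays. Pcdh12, also called VE-cadherin-2 and known from endothelium and placenta, gave 286, 575 and 1018 on its brightest probe set, above the floor in replicate 3 alone. Pcdh15, a partner of Cdh23 in hair cell tip links, gave 682, 589 and 1011, likewise above it in replicate 3 alone. Pcdh20 gave 426, 204 and 320.0, and its second probe set, at 12.3, 23.9 and 7.12, was the dimmest of all members on MOE430A.

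The clustered beta protocadherins, single-exon receptors of which a neuron is known to choose few, were measured for all 22 genes of the RefSeq cluster. None of their 23 MOE430A probe sets was above the floor on all 3 arrays, beside 42.4% of all probe sets there. Mean signals ran from 47.3 to 649, with a median of 197 and a median percentile of 21.7. Pcdhb6 gave 771, 635 and 540.3, above the floor in replicate 1 alone, and Pcdhb21 gave 249, 738 and 447, above it in replicate 2 alone. The other 21 were under it on every array, Pcdhb2 nearest at 519, 669 and 699.6.

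On MOE430B 2 of 5 beta probe sets were above the floor, beside 37.2% of all probe sets there: those of Pcdhb15 at 1719, 1921 and 2524 and of Pcdhb16 at 1229, 1014 and 1219. Neither passed the tryptophan control on all 3 arrays. The Pcdhb15 probe set has the suffix that Affymetrix gives to sets whose probes may bind several transcripts, and beta genes are close copies of one another, so its gene of origin is uncertain. On MOE430A the same genes gave 70.5, 137 and 62.0 (Pcdhb15) and 151, 187 and 11.9 (Pcdhb16), and the other MOE430B probe set of Pcdhb16 gave 147, 149.7 and 375. Pcdhb15 and Pcdhb16 are neighbours in the cluster, where 21 adjacent pairs run through all 22 genes. Pcdhgc4, the gamma protocadherin outside the rule, gave 64.7, 68.9 and 613 on MOE430B, under the floor.

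**Figure D3:**
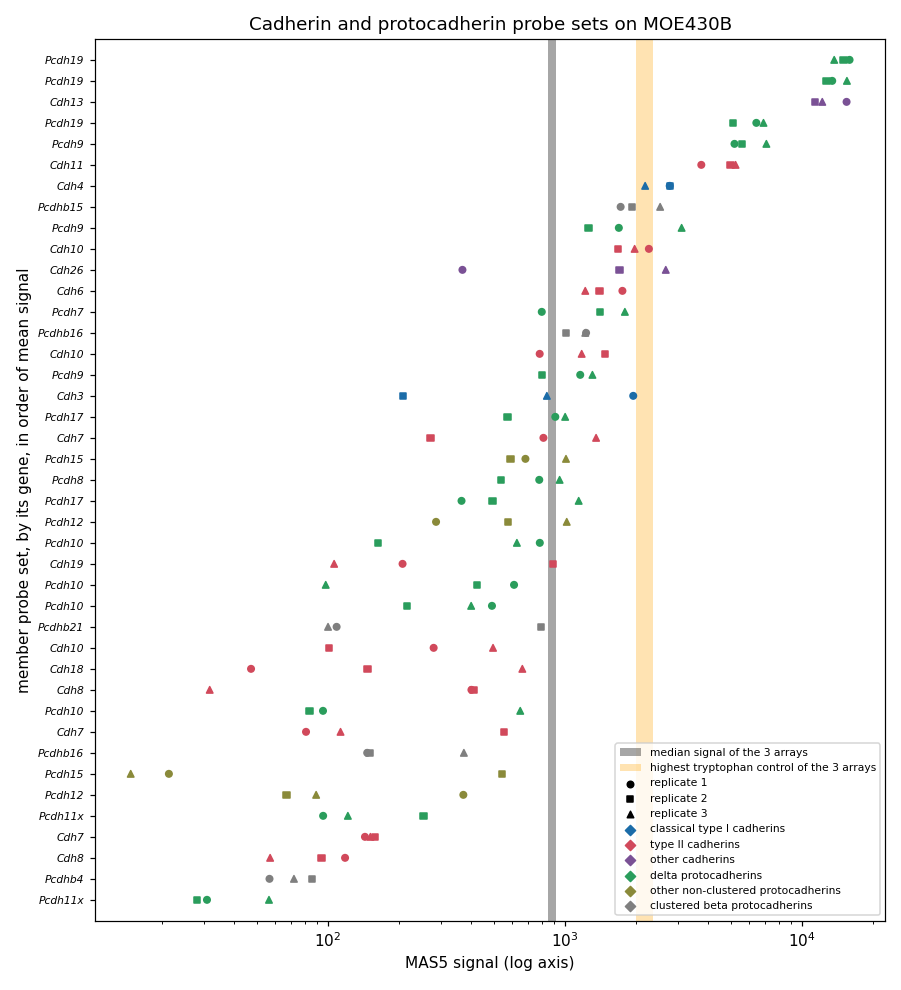
MAS5 signal (log axis) of each of the 41 member probe sets on the 3 MOE430B arrays, 1 row a probe set named by its gene, drawn as for MOE430A. The median band (849 to 917) lies below the tryptophan band (1989 to 2348); the probe sets of Pcdh19, Cdh13, Cdh11 and the first of Pcdh9 lie right of both in all 3 replicates.

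Probe sets of a gene often disagreed. Of 10 genes with more than 1 probe set on MOE430A, 4 had probe sets on both sides of the floor, 6 had all of them at or under it and 0 had all above. On MOE430B the same counts over 11 genes were 3, 7 and 1. Of the 16 genes on both types, Cdh11 and Cdh13 were above the floor on both, 5 on MOE430B alone (Cdh4, Cdh6, Cdh10, Pcdhb15 and Pcdhb16), 2 on MOE430A alone (Cdh3 and Pcdh7) and 7 on neither. None of the 5 passed the tryptophan control of MOE430B on all 3 arrays.

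Of 15 catenins and adaptors, which hold cadherins to the cytoskeleton, 10 were above the floor, beside 54.7% of all genes with 1 symbol. Beta-catenin Ctnnb1, which binds the cadherin tail, gave 16475, 19065 and 18192, and alpha-catenin Ctnna1, which links it to actin, 13038, 11249 and 10449. Vinculin Vcl gave 21396, 19009.6 and 16919. The p120-catenin Ctnnd1, which keeps cadherins at the surface, gave 2446, 2433 and 2196.

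Plakoglobin Jup was at 2356 ± 635, the actin-bundling Lima1 at 4071 ± 466, the scaffold Tjp1 at 2356 ± 55.8 and Ajuba at 1853 ± 149 (SD, n = 3). On MOE430B afadin Afdn was at 3343 ± 540.1 and the neural catenin Ctnnd2 at 2452 ± 601. Replicate 3 of Ctnnd2, at 1765, fell short of the tryptophan control of its array, 2229. The neural and cardiac alpha-catenins Ctnna2 and Ctnna3, with Arvcf, Ctnnal1 and Pkp4, were not above the floor on all arrays.

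Desmosome genes, which join epithelial cells through their own cadherins and plakophilins, had 1 of 10 above the floor, where 54.7% of all genes were, Pkp2 at 1013, 919 and 825. The measured desmocollins and desmogleins and desmoplakin Dsp were all among the 9 that were not. The list holds 13 genes, of which Dsg1c, Dsg3 and Dsg4 were not measured. The 7 listed repressors of Cdh1, transcription factors of epithelial-mesenchymal transition, were all above it (54.7% of all genes), Zeb1 at 5488, 5672 and 6045, Twist2 at 5133, 4019.5 and 2650.4, Tcf3 at 3308, 4114 and 3012 and Snai1 at 2954, 2675 and 3836.

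Large cadherins and relatives had 7 of 17 genes above the floor, a smaller share than the 54.7% of all genes. Fat1, a giant cadherin that regulates actin and cell polarity, had its only probe set on MOE430B at 41508, 59781 and 76403. Fat4 and Dchs1, which bind each other across cell contacts, gave 2504, 5147 and 8466, and 2585, 3960.2 and 4679. These 3 were lowest in replicate 1 and highest in replicate 3. Clstn1, a calsyntenin, was at 2968 ± 413 on MOE430A.

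Nectins, immunoglobulin-like receptors that afadin ties to adherens junctions, had 3 of 4 above the floor (54.7% of all genes), Nectin1 at 11968 ± 2415 on MOE430B and Nectin2 and Nectin3 at 2392 ± 194 and 1149 ± 182. Beside the same 54.7%, all 4 measured genes of cadherin processing were above it, among them Furin, the protease that removes propeptides, at 2266 ± 161, and Adam10, which sheds the ectodomains of several cadherins, at 3402 ± 87.5. Of 8 measured partners and regulators of protocadherins 6 were, again beside 54.7%. Nckap1, a subunit of the complex that starts actin branching, was at 10891 ± 810.1, and Abi1, another subunit, at 2054 ± 308. The others, Wasf1 (36.9, 593 and 554) and Cyfip2 (367, 408 and 744), were not above it on all 3 arrays. On MOE430B Smchd1, a chromatin protein that acts on the protocadherin clusters, was at 2051 ± 138 and the kinase Ptk2b at 1895 ± 777. Neither of these passed the tryptophan control on all 3 arrays.

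**Figure D4:**
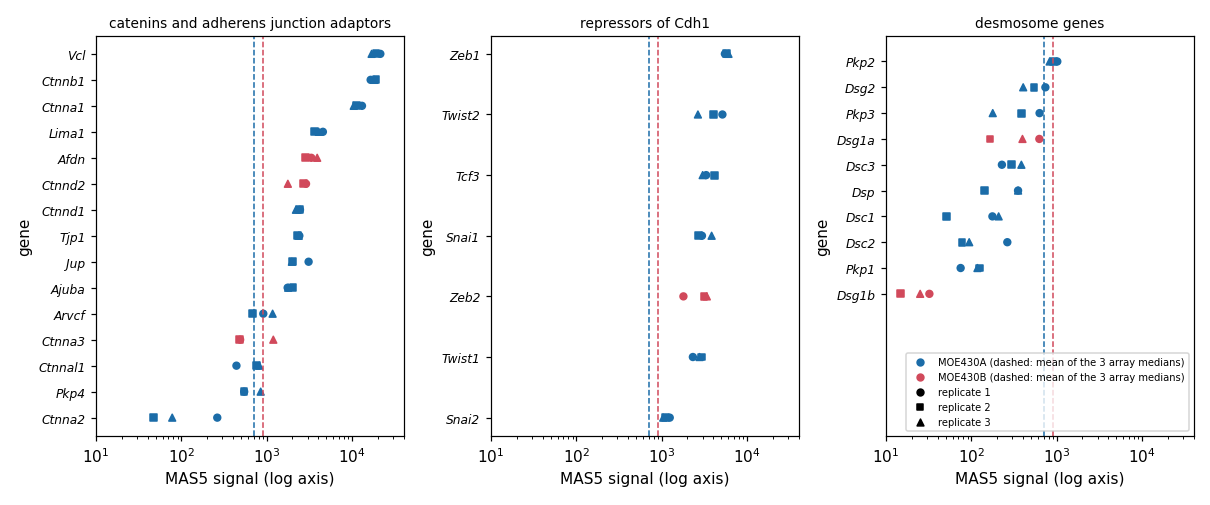
MAS5 signal (log axis) of the catenin and adaptor list, the Cdh1 repressor list and the desmosome list, 1 probe set a gene, coloured by array type, with the marker giving the replicate. Dashed lines are the mean of the 3 array medians of each type; 10 of 15, 7 of 7 and 1 of 10 genes lay above their floor on all 3 arrays.

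The spread between replicates was next compared with that of the whole array. The SD of log2(signal + 16) over the 3 arrays had a median of 0.24 for the 6 members above the floor on MOE430A and 0.24 for all 9600 probe sets above it. On MOE430B the medians were 0.23 for 12 members and 0.28 for all 8384. Without replicate 2 the MOE430A member median was 0.11. Among members above the floor on every array of their type, the largest SDs were those of the second Pcdh9 probe set (SD 0.66), Pcdh18 (0.58), Cdh11 on MOE430A (0.34), Cdh3 (0.30) and Pcdhb15 (0.28). The smallest SD among these members was 0.10 on MOE430A and 0.11 on MOE430B.

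Replicate 1 was set against replicates 2 and 3, since its cell number and RNA concentration are what the labels record as different. No member passed. The fit was limma's moderated test on log2(signal + 16), with Benjamini-Hochberg adjustment over all probe sets tested and a threshold of 0.05. It held the 7 member probe sets of MOE430A and the 16 of MOE430B that exceeded the floor in their mean over the 3 arrays, both in log2, and 52 and 25 were not tested. Called were 0 of 7 on MOE430A, beside 0.705% of 11066 probe sets, and 0 of 16 on MOE430B, beside 0.00% of 10594. At an unadjusted p under 0.05 stood 1 member on each type, beside 8.13% and 7.24% of all probe sets. One array against 2 leaves 1 residual degree of freedom and no measure of the spread of replicate 1, so these counts do not show that members were alike.

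The 5 member probe sets with the smallest unadjusted p on each type are given as values. Cdh26 on MOE430B (369.7 against 1700.1 and 2666) differed by -2.48 ± 0.45 (SE) on the log2 scale, replicate 1 minus the others, with an adjusted p of 0.442 in limma. The second Cdh2 probe set (1622 against 1119.9 and 729) differed by 0.83 ± 0.38 with an adjusted p of 0.553, and the first by 0.30 ± 0.37. Pcdh7 on MOE430B was at -0.98 ± 0.39 and on MOE430A at 0.25 ± 0.37, so the tested probe sets of this gene had opposite signs, and the dimmest was not tested. Cdh11 was at -0.39 ± 0.37 on MOE430A and -0.44 ± 0.36 on MOE430B, lower in replicate 1 on both. Cdh13 was at -0.18 ± 0.37 on MOE430A, Cdh6 at 0.42 ± 0.37 on MOE430B, and Cdh10 at -0.74 ± 0.38 on the probe set above the floor on 2 arrays. In replicate 1 the MOE430B probe sets of Cdh26, Pcdh7 and this one of Cdh10 lay under the median of 849. They entered the fit through replicates 2 and 3. The MOE430B probe set of Cdh3 (1943 against 207 and 839.8) differed the other way but did not pass the filter. Which differences are listed thus depends on the filter. Outside these 5, Cdh13 on MOE430B was at 0.39 ± 0.36 and the brightest Cdh10 probe set at 0.31 ± 0.37, each opposite in sign to the other tested probe set of its gene.

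On MOE430A 4 of 7 were higher and 3 lower in replicate 1, with a median difference of 0.12 beside -0.01 for all probe sets tested. On MOE430B 8 were higher and 8 lower, with a median of 0.02 beside 0.03. These counts hold only members that passed the filter, which uses the signals of the compared arrays themselves. Of the other lists, 0 of 46 tested probe sets on MOE430A and 0 of 22 on MOE430B were called. The lowest adjusted p in limma was 0.73 on MOE430A, for Arvcf, and 0.645 on MOE430B, for Fat4 and Cyfip2. On MOE430A the file headers give the first pair of replicates the same scan day and station, and replicate 3 another day and station. Within that day, replicate 1 minus replicate 2 was 0.53 for the second Cdh2 probe set and -0.64 for Cdh11, each from 1 array a side. On MOE430B the scan day was the same throughout, but the station of replicate 1 differed from that of the others, so a station effect and a replicate 1 effect cannot be told apart.

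**Figure D5:**
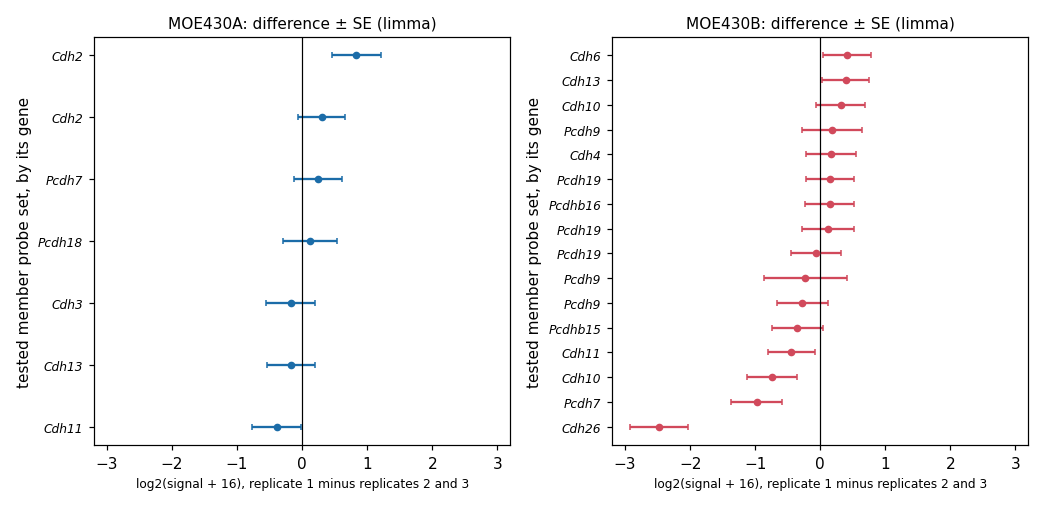
Difference of log2(signal + 16) between replicate 1 and replicates 2 and 3 for each tested member probe set, 7 on MOE430A and 16 on MOE430B. Only members whose mean over the arrays of a type exceeded the floor were tested. Points are limma's estimates and bars are ± 1 SE. Cdh26 lies farthest from 0, at -2.48, and no difference passed an adjusted p of 0.05.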

How the data were processed

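Each array's column holds deposited signal intensities on a linear scale, made by the authors with MAS5 per the submitters' processing notes. Its version and settings were not given in the sources used here. After removal of the top and bottom 2% of probe sets, the mean was 1500.5 on every MOE430A array and 1500.2 on every MOE430B array, so each type had been scaled to 1 target. Control probe sets (64 per type) were left out of all counts but kept in medians and percentiles. GEO's platform annotation, possibly out of date, supplied the symbols. It names 1 gene for 20380 probe sets of MOE430A and 14661 of MOE430B, 20351 and 14486 of which matched RefSeq by identifier, several genes for 691 and 245, and no gene for 1555 and 7605. All 100 member symbols were unchanged by the match. Gene order and promoters came from RefSeq tables (GRCm38.p6); the arrays have no genome build.

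A gene counted as above the floor if any probe set exceeded the median of its array on all 3 arrays of its type. A listed gene's value is its brightest probe set above the floor, on MOE430A before MOE430B. Its other probe sets need not pass. Those above the floor were 2 of 4 for Ctnna1 and Zeb1, 1 of 4 for Pkp2 and 1 of 6 for Nectin3. For Ctnnb1 (3 of 3) and Vcl (2 of 2) all were. Replicate 1 was tested against the others with limma 3.58.1 in R 4.3.3 (lmFit, eBayes) within each type. The fit was also run on simulated arrays that all varied alike, with an added change larger than that of any tested member. That run does not address the lone array of replicate 1 or differences in scan day and station. Members above the floor, the lineage cadherins and members above it on 1 or 2 arrays are named, with the 5 smallest p-values per type, the 5 largest SDs, catenins above the floor and up to 4 genes of other lists. Pcdh1, Pcdhb2, Pcdh20 and Cdh23, named with values under the floor, Pcdhgc4, the promoters printed, the lowest list genes in limma (Arvcf, Fat4, Cyfip2), and Cdh13 and the brightest Cdh10 probe set on MOE430B in limma lie outside this rule: they were picked once their values were known. The markers of other cell types above the floor, Wasf1 and the signals of Cyfip2 were likewise added with their values known. The members and lists were chosen with earlier results of these data known. Alternatives were other floors, pseudocounts, filters and normalizations, and leaving out each replicate.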

Additional observations from a re-analysis of the deposited data

How the results depend on the processing

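The counts of members rest on the floor. On MOE430A the count of 6 member probe sets became 25 at a fixed signal of 200 and 1 at the 75th percentile. On MOE430B the count of 12 became 24 and 7 under the same floors, and 6 with the tryptophan control. With a MOE430B floor taken from the probe sets shared by both types, chosen after seeing the data, it was also 6. The 13 genes became 32 at a signal of 200, 5 at the 75th percentile, 8 with the tryptophan control and 8 with the shared probe sets, the last 2 being the same genes, and 2 if every probe set had to pass. Leaving out a replicate gave 13 to 15 genes, with all 13 kept each time; Cdh26 was added without replicate 1, and Cdh22 and Pcdh17 without replicate 2. The median SD of members moved to 0.51 on MOE430A and 0.59 on MOE430B with no floor, and without 1 replicate ranged from 0.11 to 0.28 and from 0.19 to 0.24. No member was called in limma under any alternative run, while all MOE430A calls went from 78 to 0 without the filter on low signals, 0 with quantile normalization and 164 with an intensity trend; the cause was not tested. The 10 member differences tried (the 5 with the smallest p per type) kept their sign under every alternative run, replicates 2 and 3 left out in turn included. They were picked for a small p on the same arrays, which favours probe sets whose replicates 2 and 3 are alike. Their stable sign therefore says little, and the other tested members were not tried. Without replicate 1 there is no contrast, and within the shared scan day on MOE430A 1 array a side gives a value with no test, which is the value without replicate 3. No paired analysis was possible because the samples of 1 array type form 1 group and the replicate numbers recur only across the 2 types; the 100 probe sets on both include 0 members, so no member can be compared across them.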
